A study of Mus musculus with 2 samples.

Results

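Nuclei of the fetal mouse testis that carried the most smooth-muscle transcripts were described in their RNA and in their open chromatin. Barcodes were kept with 2000 to 50000 UMIs (unique molecules counted), under 10% mitochondrial UMIs, over 500 transposase cuts at peaks and at most 1 UMI in the sum of *Rgs5*, *Abcc9*, *Kcnj8* and *Lgi1*, 4 genes of vascular mural cells. The 7115 kept barcodes, of 9833 in the data, were ranked by the share of their UMIs in 5 contractile genes, *Acta2*, *Myh11*, *Cnn1*, *Actg2* and *Tagln*. The 500 highest are the members, and the other 6615 are the comparison. Whole testes came from *Nr5a1-cre; Rosa-tdTomato* mouse embryos at E14.5, counted in days from conception, and every nucleus shares this genotype. Cre in this line is driven by a promoter of steroidogenic and other gonadal somatic cells, and the tdTomato reporter was not used here. The 10x multiome assay gave 1 RNA library and 1 ATAC library (open chromatin, cut by a transposase) of the same nuclei, and all 500 member barcodes appear in both. How many embryos were pooled is not stated. With 1 library per assay there are no replicates and no test: intervals are exact at 95% and cover counting error only, and nuclei are not replicates.

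Contractile cells of the testis lie as flattened peritubular myoid cells around the cords, as muscle of the tunica albuginea (the capsule) and as smooth muscle of vessels. In smooth muscle, serum response factor (*Srf*) binds the CArG box, a short A/T-rich element between CC and GG, and its partner myocardin (*Myocd*) drives actin, myosin and calponin genes. Sertoli cells inside the cords send Desert hedgehog to the cells outside them, and peritubular cells build the basement membrane of the cord together with Sertoli cells. The rule reads no position in the tissue, so members cannot be placed at the cord, the capsule or the mesonephric border from these data.

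The members held few molecules of the genes that chose them. A member had a median of 3 rule gene UMIs (range 1 to 32), which were 0.0441% of its UMIs (range 0.0263% to 0.390%). Of the 500, 323 had at least 3 such UMIs, 170 had at least 5 and 50 had at least 10, and 222 had UMIs of only 1 of the 5 genes. Among the 6615 others, 1258 had at least 1 and 285 at least 2. At the threshold, the barcode ranked 500 had 1 of 3798 UMIs (0.0263%) and the barcode ranked 501 had 2 of 7600 (0.0263%), so the last members and the first nuclei left out differed little. Ranking by share also takes single UMIs in shallow nuclei, though 451 members had at least 2 rule gene UMIs. Members were shallower than all others (median 6632 against 8319 UMIs). The stromal group defined below stood at 6658 UMIs, near the members, and germ-like nuclei at 15123. The cause of the difference in depth was not tested.

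The 5 rule genes had these levels in the members, as a description of what the rule selected. Levels are counts per 1000000 UMIs of a group (CPM), and positions are on GRCm38. *Acta2*, smooth-muscle actin (ENSMUSG00000035783, chr19:34241090-34255590, minus strand), stood at 230 CPM (215 to 245) in members and 10.3 CPM in others, and 348 members had a UMI of it. *Myh11*, the smooth-muscle myosin heavy chain (ENSMUSG00000018830, chr16:14194535-14291372, minus strand), stood at 283 CPM (267 to 300) against 11.4 CPM, with a UMI in 358 members. Both genes were seen together in 217 members, *Acta2* without *Myh11* in 131, and *Myh11* without *Acta2* in 141. *Tagln*, transgelin (ENSMUSG00000032085, chr9:45929619-45936058, minus strand), stood at 48.4 CPM (41.8 to 55.7) against 2.55 CPM. *Actg2*, enteric smooth-muscle actin (ENSMUSG00000059430, chr6:83512905-83536265, minus strand), was seen in only 31 members, at 16.4 CPM against 0.230 CPM. *Cnn1*, calponin 1 (ENSMUSG00000001349, chr9:22099216-22109630, plus strand), was seen in 18 members, at 5.80 CPM against 0.115 CPM. In germ-like nuclei, which should lack both genes, *Acta2* read 5.19 CPM and *Myh11* 4.99 CPM.

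Each rule gene was also read in the 500 nuclei ranked highest on the other 4 genes, so that it did not choose them. *Acta2* was then 8.74-fold higher (7.87 to 9.71) and *Myh11* 8.06-fold higher (7.30 to 8.88) than in the remaining nuclei. The rarer genes had larger and less certain ratios: 11.3-fold (9.11 to 14.0) for *Tagln*, 27.7-fold (12.8 to 62.6) for *Cnn1* on 19 UMIs against 12, and 53.5-fold (31.9 to 93.7) for *Actg2* on 61 UMIs against 20. Of these 500 nuclei, 64.4% were the same as the members when *Myh11* was left out and 69.8% when *Acta2* was, against 93.6% to 99.6% for the other genes. The identity of the members therefore rested mostly on *Acta2* and *Myh11*.

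Clusters made from chromatin alone, without any RNA, spread the members over several classes at the resolution used (0.5). At a coarser resolution (0.3), where no cluster took the contractile name, 79.0% of members (75.2% to 82.5%) lay in the progenitor-like cluster with 44.3% of the others. The shares that follow are those at 0.5. A cluster of 601 nuclei was named contractile-like from the RNA of its nuclei, by markers that are the 5 rule genes themselves, so the rule and the name share their genes and the excess of members in it is a description. It held 172 members, 34.4% of them (30.2% to 38.8%), against 6.49% of the other nuclei. The largest number, 219 members or 43.8% (39.4% to 48.3%), lay in the progenitor-like cluster, which held 37.3% of the others. A further 42 members (8.40%) were in a cluster with mesonephric mesenchyme markers, 34 (6.80%) in the surface epithelium-like cluster and 19 (3.80%) in the Leydig-like cluster. The germ-like and Sertoli-like clusters held 4 members each (0.80%), where each held over 13% of the other nuclei (13.7% and 13.4%). Clusters made from RNA spread the members in a like way, with 37.0% (32.8% to 41.4%) in a contractile-like cluster and 23.6% and 21.4% in a pair of progenitor-like ones. The members are therefore described below as contractile-ranked nuclei and not as one cell type. Only 28.6% of the contractile-like chromatin cluster were members.

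**Figure D1:**
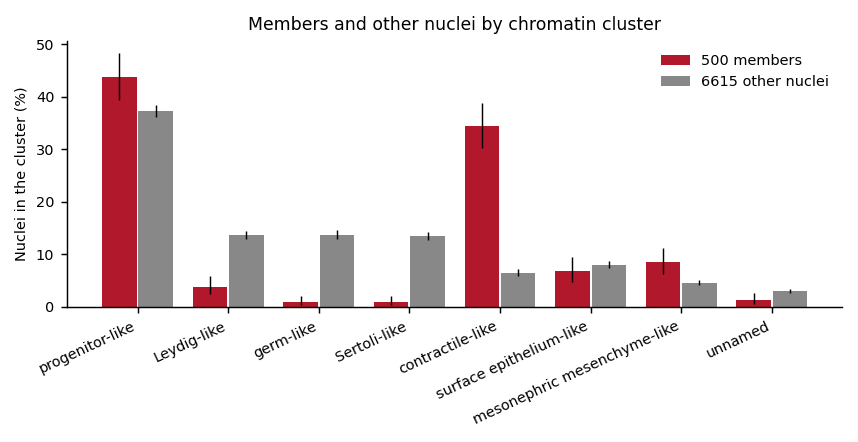
Share of the 500 members (red) and of the 6615 other nuclei (grey) in each cluster made from chromatin alone, in percent, with exact 95% intervals for counting error. In percentage points the shares of members and others lay furthest apart in the contractile-like cluster (34.4% against 6.49%), while the progenitor-like cluster held the largest share of both.

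Other genes of the contractile apparatus, which the rule did not use, were mostly higher in the members. Of 33 such genes with at least 50 UMIs, 22 were at least 2-fold higher and 1 was at least 2-fold lower, where over all 16897 genes 3.12% were at least 2-fold higher and 16.7% at least 2-fold lower. The filter is on UMIs of both groups together, and members held 3969029 UMIs against 69470457. Genes near it thus have few member UMIs, and counting error alone can carry some past 2-fold, more of them lower than higher. The part of counting error in the shares over all genes, here and below, was not tested. The median log2 ratio of the list was 1.21, against -0.16 over all genes, and its summed level was 10127 CPM in members and 4180 CPM in others. All of these genes were read in the nuclei the rule chose on RNA, so these values describe the members. A closer comparison is the stromal group, the 2898 other nuclei of the progenitor-like and contractile-like chromatin clusters. All 500 members were compared with it, among them the 42, 34 and 19 of the mesonephric mesenchyme-like, surface epithelium-like and Leydig-like clusters. The group is therefore not matched to the members by cluster. Against it 16 of 32 genes were at least 2-fold higher and 0 lower (2.28% and 2.67% over all 13580 genes), with a median log2 ratio of 0.94 and a summed level of 6179 CPM in that group.

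*Lmod1*, leiomodin 1, which starts actin filaments in smooth muscle, had the largest ratio of the list: 31.8 CPM in members and 1.14 CPM in others, 27.9-fold (20.9 to 37.5), and 20.8-fold over the stromal group. *Nexn*, the actin-binding nexilin, stood at 114 CPM against 15 CPM, 7.63-fold (6.82 to 8.53). *Cnn2*, calponin 2, stood at 93 CPM against 14.2 CPM, 6.56-fold (5.80 to 7.40). *Myl9*, the regulatory light chain of smooth-muscle myosin, was 6.01-fold higher (4.95 to 7.27) and *Csrp1*, a LIM protein of actin bundles, 5.15-fold higher (4.50 to 5.88). *Mylk*, the kinase that phosphorylates this light chain to start contraction, stood at 374 CPM against 97.4 CPM, 3.84-fold (3.62 to 4.06), and 2.40-fold over the stromal group. *Tpm1*, tropomyosin 1, stood at 702 CPM against 223 CPM, 3.15-fold (3.02 to 3.28). Some of the list was also high in the stromal group: *Sgcd*, a sarcoglycan of the muscle membrane, was 2.73-fold higher than in all others but only 1.35-fold higher than in the stromal group.

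A few genes of the list were not clearly higher than in all others. *Des*, the muscle intermediate filament desmin, had 8 member UMIs, a ratio of 1.05 (0.445 to 2.14). *Fhl1* was 0.419-fold (0.320 to 0.538) against all others, whose germ-like nuclei carried 106 CPM, and 2.12-fold (1.56 to 2.84) against the stromal group, so its direction depended on the comparison. *Synpo2* behaved alike, at 0.974-fold (0.702 to 1.32) and 2.83-fold (1.93 to 4.09). Of 13 striated-muscle genes 5 had at least 50 UMIs, of which 0 were at least 2-fold higher and 2 at least 2-fold lower (3.12% and 16.7% over all genes), and the list summed to 25.2 CPM in members and 36.7 CPM in others.

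**Figure D2:**
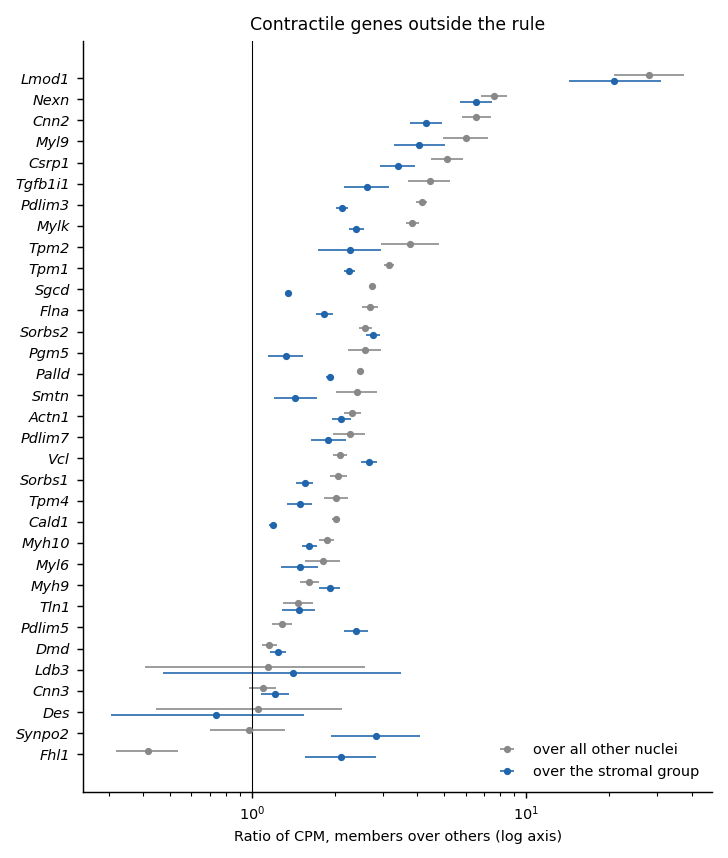
Ratio of CPM, members over others, for the 33 contractile genes outside the rule with at least 50 UMIs (log axis), with exact 95% intervals. Grey points compare with all 6615 other nuclei and blue points with the 2898 nuclei of the stromal group; *Lmod1* leads on both, and *Fhl1* and *Synpo2* move from at or below 1 in grey to above 2 in blue.

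The co-activator that drives this programme in smooth muscle was far higher in the members, while the DNA-binding factor was low in every group. *Myocd* stood at 318 CPM (301 to 336) in members, 29.7 CPM in others and 46.3 CPM in the stromal group, ratios of 10.7 (9.98 to 11.5) and 6.87 (6.33 to 7.45). After each nucleus was thinned to 2000 UMIs, 29.6% of members (25.6% to 33.8%) had a *Myocd* UMI, against 4.49% of others, 6.18% of the stromal group and 0.662% of germ-like nuclei, whose share serves as background. Unthinned shares were 48.4%, 10.8%, 13.4% and 3.31% at median depths of 6632, 8319, 6658 and 15123 UMIs. *Srf* itself stood at 6.55 CPM against 4.0 CPM, 1.64-fold (1.05 to 2.45). The related co-activators *Mrtfa* and *Mrtfb*, which carry actin signals to SRF, had ratios of 1.22 (1.15 to 1.30) and 1.05 (0.981 to 1.13). *Ccn1* and *Ccn2*, matricellular genes known as targets of the YAP and TEAD factors, were 10.1-fold (8.32 to 12.2) and 6.07-fold (4.62 to 7.90) higher. *Tead4* was 2.63-fold higher (1.93 to 3.53) and *Tead1*, which stood at 673 CPM, 1.34-fold (1.29 to 1.39). Of the 21 regulators with enough UMIs, these 4 genes, *Myocd*, *Ccn1*, *Ccn2* and *Tead4*, were the ones at least 2-fold higher (3.12% over all genes), and against the stromal group 5 of 19 were (2.28% over all genes).

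Some genes of calcium entry and of relaxation in smooth muscle were higher. *Cacna1c*, the L-type calcium channel, stood at 308 CPM against 86.7 CPM, 3.56-fold (3.34 to 3.79), and 2.50-fold over the stromal group. *Prkg1*, the cGMP-dependent kinase that relaxes smooth muscle, stood at 339 CPM against 105 CPM, 3.24-fold (3.05 to 3.43). *Trpc6*, a cation channel, was 2.43-fold higher (2.24 to 2.62). The soluble guanylate cyclase genes *Gucy1a1* and *Gucy1b1* were 2.59-fold and 2.01-fold higher than in all others, but 1.32-fold and 0.940-fold against the stromal group. In all, 5 of 16 genes with enough UMIs were at least 2-fold higher than in all others, and 3 of 16 than in the stromal group, where 3.12% and 2.28% of all genes were. At least 2-fold lower were 0 and 1 of the 16, where 16.7% and 2.67% of all genes were. *Kcnmb1*, the smooth-muscle subunit of the large potassium channel, had 7 member UMIs against 9 in all others, 13.6-fold (4.31 to 41.1).

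Receptors through which hormones and nerves contract smooth muscle differed from one another. *Adra1b*, an adrenergic receptor, stood at 40.3 CPM against 5.99 CPM, 6.73-fold (5.57 to 8.10), and *Ednrb*, an endothelin receptor, at 10.3 CPM against 2.25 CPM, 4.60-fold (3.18 to 6.53). The other endothelin receptor, *Ednra*, stood at 700 CPM, 1.71-fold over all others but 0.822-fold (0.790 to 0.855) against the stromal group. Over all others, *Agtr1a*, an angiotensin receptor, was 2.47-fold higher (1.54 to 3.80) on 24 UMIs, and *Lpar1*, for lysophosphatidic acid, was 2.30-fold higher (2.13 to 2.47). *Oxtr*, the oxytocin receptor, was 0.414-fold (0.177 to 0.826) on 8 member UMIs. Of 20 receptors with enough UMIs, 6 were at least 2-fold higher and 2 at least 2-fold lower, where 3.12% and 16.7% of all genes were. Of 17 compared with the stromal group, 3 were at least 2-fold higher and 0 lower, and the summed level of the receptors was 1211 CPM against 1186 CPM, a ratio of 1.02 (0.990 to 1.05).

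Among Hedgehog pathway genes, the direction of the targets *Ptch1* and *Gli1* depended on the comparison group. Of 12 pathway genes 1 was at least 2-fold higher than in all others (3.12% over all genes), *Gas1*, a co-receptor, at 2.39-fold (2.13 to 2.67), and the median log2 ratio was 0.53 against all others and 0.02 against the stromal group. *Ptch1*, the receptor that is itself a target, stood at 595 CPM in members, 554 CPM in all others and 921 CPM in the stromal group, ratios of 1.07 (1.03 to 1.12) and 0.646 (0.619 to 0.674). *Hhip*, an inhibitor and target of the pathway, was 0.879-fold (0.809 to 0.953) against all others and 0.510-fold (0.469 to 0.553) against the stromal group. *Gli1*, a target and effector, was 1.66-fold (1.44 to 1.90) against all others but 0.830-fold (0.719 to 0.955) against the stromal group. *Gli3*, mainly a repressor, was above 1 in both, at 1.94-fold (1.86 to 2.02) and 1.59-fold (1.52 to 1.67). The side of *Ptch1* against all others depended on who was counted: in the 250 highest-ranked nuclei it was 0.924-fold (0.866 to 0.986), and with the ranking made without *Myh11* it was 0.972-fold (0.929 to 1.02).

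Matrix genes also differed from one another. Of 34 basement membrane and matrix genes, 9 were at least 2-fold higher than in all others and 3 of 34 than in the stromal group, where 3.12% and 2.28% of all genes were. In the second comparison 20 of the 34 were above 1 and the median log2 ratio was 0.17, against -0.006 over all genes. The ratio of sums went the other way, at 0.894 (0.881 to 0.906). The 3 genes at least 2-fold over the stromal group were *Fbln5*, *Tnc* and *Thbs2*. *Fbln5*, fibulin 5 of elastic fibres, was 4.15-fold (3.68 to 4.66) and 3.88-fold higher, and *Tnc*, tenascin C, 2.14-fold (1.87 to 2.45) and 2.81-fold. *Ltbp1*, which tethers latent TGF-beta to the matrix and was counted in the TGF-beta list, was 2.80-fold (2.66 to 2.94) and 2.69-fold higher. The widespread type IV collagen chains *Col4a1* and *Col4a2* were 0.564-fold (0.536 to 0.593) and 0.552-fold (0.515 to 0.592) against the stromal group, and *Lama2*, laminin alpha 2, was 0.694-fold (0.672 to 0.717). Against all others these 3 genes were at 1.06-fold, 1.04-fold and 1.51-fold. The pair *Col4a3* and *Col4a4*, chains of specialised basement membranes that were not in the list of 34 and are named for their ratios, was 4.07-fold (3.61 to 4.59) and 4.04-fold (3.78 to 4.32) higher than in the stromal group. Against all others it stood at 116 CPM against 16.0 CPM (7.24-fold, 6.48 to 8.08) and 369 CPM against 49.4 CPM (7.47-fold, 7.02 to 7.95). The integrin *Itga1*, which binds collagen, stood at 141 CPM against 26.9 CPM, 5.23-fold (4.75 to 5.75), and 4.66-fold over the stromal group. Of 14 integrins with enough UMIs, 2 were at least 2-fold higher and 1 at least 2-fold lower in each comparison (3.12% and 16.7% over all genes against all others, 2.28% and 2.67% against the stromal group). Their summed level was 2909 CPM in members, 1.34-fold (1.32 to 1.37) against all others and 0.883-fold (0.865 to 0.900) against the stromal group. *Itga6*, a laminin-binding integrin, was 0.386-fold (0.343 to 0.434) against all others.

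Interstitial progenitor genes mostly stood above all others and slightly below the stromal group. Against all others 13 of 16 such genes were above 1 and 2 at least 2-fold higher (3.12% over all genes), with a median log2 ratio of 0.18 and a ratio of sums of 1.37 (1.34 to 1.39). Of the 16, 0 were at least 2-fold higher or lower than in the stromal group (2.28% and 2.67% over all genes), 4 were above 1, and the median log2 ratio was -0.26. *Nr2f2*, a nuclear receptor of interstitial cells, stood at 479 CPM in members and 502 CPM in the stromal group, 0.953-fold (0.908 to 1.0), and after thinning 59.4% of members and 64.7% of that group had a UMI of it, against 7.50% of germ-like nuclei. *Wnt5a* had a ratio of 1.18 (1.13 to 1.24) to the stromal group. *Lepr*, *Inhba* and *Adam23* were lower, at 0.525-fold, 0.540-fold and 0.551-fold, and *Wt1*, a factor of the coelomic epithelium and its descendants, was 1.73-fold (1.62 to 1.84), all against that group.

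Among all genes with at least 100 UMIs and 50 CPM in the higher group, the 10 largest ratios over all other nuclei belonged to *Gm17501*, *Myocd*, *Sytl2*, *Nexn*, *Col4a4*, *Col4a3*, *Cnn2*, *Carmn*, *Itga1* and *Csrp1*. *Gm17501*, a predicted gene, stood at 66.3 CPM against 6.16 CPM, 10.8-fold (9.19 to 12.6). *Carmn*, a long noncoding RNA of smooth muscle, stood at 155 CPM against 28.4 CPM, 5.44-fold (4.96 to 5.96). Against the stromal group the list also held *Cdh3*, the adhesion protein P-cadherin (116 against 21.8 CPM), *Pid1* (290 against 66.6 CPM) and *Msrb3* (302 against 72.3 CPM). The 10 smallest ratios over all others were those of genes carried by germ-like nuclei, such as *Gm884* (0.0381, 0.0164 to 0.0751) and *Mael* (0.0884, 0.0523 to 0.140), a factor of germ-cell transposon silencing. Against the stromal group the 10 smallest included those of *Tll1* (35.3 against 173 CPM), *Csmd3* (48.1 against 182 CPM) and *Kcnj3* (265 against 723 CPM), and *Bmp5* (28.7 against 73.3 CPM) was also among them.

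Markers of other cell types were read for each whole list, over the members of every cluster. Members in the mesonephric mesenchyme-like, surface epithelium-like and Leydig-like clusters count in these sums, while the stromal group has no nuclei of those clusters. The part of those members in the sums was not tested. The 5 mesonephric mesenchyme markers summed to 241 CPM in members and 132 CPM in the stromal group. Of the 4 with enough UMIs only 3 were above 1, and 2 were at least 2-fold higher, *Rxfp2* and *Ntrk3* (2.28% over all genes). The surface epithelium markers summed to 105 CPM against 70.3 CPM, and the 4 with enough UMIs were all above 1 (median log2 ratio 0.63), from *Aldh1a2* at 1.39-fold to *Upk3b* at 2.02-fold, with *Msln* at 0 in the members. The mural list outside the rule summed to 249 CPM against 375 CPM. Of its 5 genes with enough UMIs, *Mcam* was 2.25-fold higher (1.55 to 3.21), *Heyl* was at 0.465-fold (0.357 to 0.596), and *Notch3*, *Pdgfrb* and *Cspg4*, genes of pericytes, were at 0.710-fold, 0.549-fold and 0.863-fold. The 3 supporting-like markers summed to 1029 CPM against 748 CPM, 1.38-fold (1.33 to 1.42), of which *Ncam1* gave 1015 CPM, while *Enpp2* was at 0.482-fold (0.297 to 0.744) and *Pax8* at 1.09-fold (0.735 to 1.56). Erythroid markers summed to 136 CPM against 258 CPM and Leydig markers to 509 CPM against 476 CPM. The Sertoli, germ, endothelial, immune, duct epithelium and neural lists had ratios of sums from 0.887 to 1.18, each with an interval that includes 1. Cell cycle genes (96 in all) summed to 6812 CPM in members, 7199 CPM in all others and 7531 CPM in the stromal group, ratios of 0.946 (0.935 to 0.958) and 0.905 (0.893 to 0.916). The median doublet score, the share of simulated pairs among a barcode's neighbours, was 0.346 in members and 0.315 in others. The part of these differences in the results was not tested.

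Contractile RNA and *Myocd* fell from band to band along the ranking. In ranks 1 to 100, 101 to 250 and 251 to 500, *Myocd* stood at 543, 354 and 226 CPM, and in ranks 501 to 1000 it was still at 109 CPM. In ranks 1001 to 1758, which end with the last nucleus holding a rule gene UMI, it stood at 42.4 CPM, and in the 5357 nuclei without any it stood at 20.7 CPM. *Lmod1* followed from 78.6 CPM in the first band to 14.2 CPM in the third and 0.473 CPM in the last. The contractile list outside the rule went from 13986 CPM to 8590 CPM within the members and to 3816 CPM in the last band. The share of nuclei in the contractile-like chromatin cluster was 54.0% in the first band, 42.7% in the second, 21.6% in the third and 5.15% in the last. *Ptch1* took another course, at 427, 565 and 665 CPM in the 3 member bands, 728 CPM in ranks 501 to 1000 and 532 CPM in the last. *Nr2f2* stayed between 443 and 520 CPM over the first 1000 ranks. Median depth was 6125 to 6805 UMIs in the bands down to rank 1000, 13672 in ranks 1001 to 1758 and 8103 in the last. The part of depth and of the mix of nuclei in these courses was not tested.

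**Figure D3:**
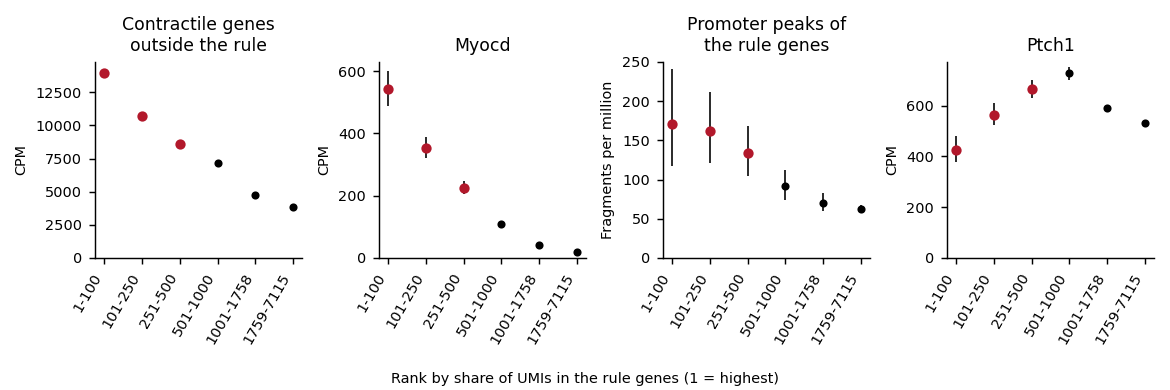
Levels in 6 bands of the ranking by share of UMIs in the 5 rule genes (rank 1 is the highest), with exact 95% intervals; red points are the member bands and black points the other nuclei. Contractile genes outside the rule and *Myocd* (CPM) and the promoter peaks of the rule genes (FPM, fragments per 1000000 fragments at peaks) decline along the ranking, while *Ptch1* (CPM) is highest in ranks 501 to 1000, at 728 CPM. Nuclei of ranks 1001 to 1758 were deeper (median 13672 UMIs) than those of the other bands.

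In each of the 4 chromatin clusters with at least 34 members, the members carried more contractile RNA than the other nuclei of that cluster. In the contractile-like cluster the list outside the rule summed to 12633 CPM in 172 members and 9021 CPM in 429 others, and in the progenitor-like cluster to 9149 CPM in 219 members and 5638 CPM in 2469 others. In the mesonephric mesenchyme-like cluster it summed to 10318 CPM against 6973 CPM, and in the surface epithelium-like cluster to 9868 CPM against 6325 CPM. The median log2 ratio of the list lay between 0.81 and 0.94 in these 4 clusters. *Myocd* stood at 496 CPM (459 to 535) against 129 CPM in the contractile-like cluster, 190 CPM (169 to 213) against 30.6 CPM in the progenitor-like cluster and 391 CPM (325 to 467) against 86.6 CPM in the surface epithelium-like cluster. Members differed among clusters in other genes: *Ptch1* stood at 904 CPM (857 to 952) in progenitor-like members, close to the 988 CPM of the other progenitor-like nuclei, and at 357 CPM (326 to 390) in contractile-like members, below the 571 CPM (548 to 596) of the others there. *Acta2* and *Myh11* were at 371 CPM and 153 CPM in the mesonephric mesenchyme-like members, and at 295 CPM and 370 CPM in the contractile-like members. Cell cycle genes summed to 7917 CPM in contractile-like members and 7962 CPM in the others there, but to 6056 CPM in progenitor-like members and 7449 CPM in the others there.

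The summed promoters of the rule genes were more open in the members, a measure that the rule did not use, and 3 of the 5 genes were higher one by one. The 7 peaks within 1 kb of a start of these genes had 156 fragments in members and 870 in others, or 149 and 66.5 FPM (fragments per 1000000 fragments at peaks), a ratio of 2.24 (1.88 to 2.66). Against the stromal group, at 81.7 FPM, the ratio was 1.82 (1.51 to 2.19). *Cnn1* had the largest ratio, 21.0 against 6.27 FPM or 3.35-fold (1.99 to 5.42), then *Acta2* at 52.5 against 18.8, 2.79-fold (2.05 to 3.76), and *Tagln* at 51.6 against 21.8, 2.37-fold (1.74 to 3.18). *Myh11*, whose RNA was among the main reasons for membership, had a promoter ratio of 1.22 (0.772 to 1.84), and *Actg2* had no peak within 1 kb. Outside this window, a peak centred 1523 bp upstream of *Myh11* was at 1.74-fold (1.09 to 2.65), and 1.75-fold (1.07 to 2.78) over the stromal group. An intron peak was at 1.70-fold (1.01 to 2.72) and 1.04-fold (0.612 to 1.69). The other peaks read within 50 kb of its start had intervals that include 1 against all others. The ratios to the stromal group were 3.65 (2.03 to 6.45) for *Cnn1*, 1.93 (1.39 to 2.64) for *Acta2* and 2.33 (1.66 to 3.22) for *Tagln*, but 0.900 (0.565 to 1.38) for *Myh11*. The largest single ratio was that of a peak inside *Cnn1*, chr9:22099786-22100608, with 17 fragments in members and 49 in others, 4.34-fold (2.34 to 7.66). In the members of the contractile-like chromatin cluster the 7 peaks stood at 168 FPM (132 to 211) and in the other nuclei of that cluster at 103 (86.1 to 123). In the progenitor-like cluster these values were 111 (77.9 to 152) and 75.8 (67.9 to 84.2), intervals that overlap, and germ-like and Sertoli-like nuclei stood at 51.0 and 44.5.

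**Figure D4:**
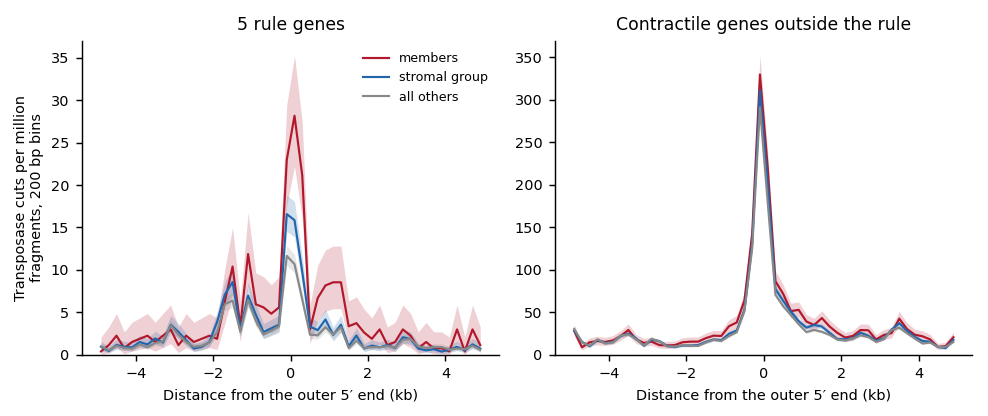
Transposase cuts in 200 bp bins within 5 kb of the outer 5′ end of each gene, per 1000000 fragments of a group, summed over the 5 rule genes (left) and over the contractile genes outside the rule (right), with exact 95% intervals as shading. At the rule genes the members (red) reach 28.2 just after the start, against 15.9 in the stromal group (blue) and 10.7 in all others (grey), whereas on the right the 3 groups lie close together.

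Promoter opening did not follow RNA for every gene. *Lmod1* had a promoter ratio of 3.96 (2.42 to 6.27), *Cnn2* of 2.63 (1.91 to 3.58), *Carmn* of 2.05 (1.64 to 2.53) and *Nexn* of 1.61 (1.07 to 2.35). At *Myocd*, whose RNA was 10.7-fold higher, the promoter peak had 7 fragments in members and a ratio of 0.841 (0.330 to 1.80). The peak shared by *Col4a3* and *Col4a4*, which start next to each other, had a ratio of 0.827 (0.370 to 1.62), and that of *Itga1* 0.908 (0.474 to 1.59). The 48 promoter peaks of the contractile list outside the rule together had a ratio of 1.15 (1.09 to 1.21). The *Myocd*, *Col4a3* and *Itga1* promoters had only 7, 9 and 13 member fragments, and differences within their intervals were not detectable at this depth.

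Over the genome, few of the peaks with enough fragments were at least 2-fold more open in the members than in the stromal group. Of 33443 peaks with at least 100 fragments, 1007 (3.01%) were at least 2-fold higher and 1769 (5.29%) at least 2-fold lower than in all others. Against the stromal group 41 of 17424 (0.235%) were at least 2-fold higher and 352 (2.02%) at least 2-fold lower. The filter counts fragments of both groups, so peaks near it have few member fragments and counting error can carry some past 2-fold. Because members held the fewer fragments, such error carries more peaks past 2-fold lower than past 2-fold higher. Most of the 41 passed it only through raised member fragments, such as the *Etl4* peak below, with 73 fragments in the stromal group. The part of the filter and of counting error in these counts was not tested. The largest ratio over all others was that of an intergenic peak 14151 bp from the start of *Col24a1*, chr3:145277847-145278796, at 4.51-fold. Against the stromal group the largest was in an intron of *Etl4*, chr2:20291111-20291997, at 3.15-fold (2.10 to 4.67), with 42 fragments in members. The peak at the start of *Ccn1*, chr3:145649562-145650370, was 2.70-fold higher (1.75 to 4.10). A peak 48545 bp from *Bmp6*, chr13:38296108-38297017, was 3.09-fold higher. The 41 peaks also included ones in or near *Cdh3*, *Tagln*, *Cnn2*, *Csrp1*, *Tead1* and *Col1a1*. An intergenic one had its nearest coding start, that of *Msrb3*, 133103 bp away. These 7 genes were chosen from them after their values were seen. The lowest ratio against the stromal group was 0.100, at the intergenic peak chr4:93713488-93714431.

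CArG boxes were more frequent in peaks that were more open in the members. The central 300 bases of each peak were searched on both strands, and a match is a description, not a site. A box was found in 503 of 33443 peaks (1.5%) in all and in 64 of 1007 (6.36%, 4.93% to 8.04%) of those at least 2-fold higher than in all others. It was in 74 of 3012 (2.46%) with a ratio of 1.5 to 2 and in 11 of 1769 (0.622%) of those at least 2-fold lower. Away from promoters, over 1 kb from any coding start, the shares were 1.89% of 18822 peaks and 5.85% (4.44% to 7.55%) of the 940 higher ones. Against the stromal group 8 of the 41 higher peaks held a box (19.5%, 8.82% to 34.9%), where 278 of 17424 (1.60%) did in all. Over 1 kb from a coding start, 4 of these 31 higher peaks did (12.9%, 3.63% to 29.8%), against 2.50% of 6399. The TEAD motif GGAATG was in 28.4% of the 1007 higher peaks and 15.7% of all, and in 18 of the 41 (43.9%, 28.5% to 60.3%) against 13.5% of all. Away from promoters TEAD shares were 28.8% of the 940 higher peaks and 20.4% of all 18822, and 48.4% of the 31 (30.2% to 66.9%) and 21.0% of all 6399. Most of the 41 peaks passed the fragment filter only through raised member fragments. Among them were the peaks with a box at *Cdh3*, *Tagln* and *Cmss1*, with 76, 78 and 82 fragments in the stromal group. Peaks this weak in the stromal group were tested only if higher in the members. The 41 and the 17424 were thus not selected alike, and the shares in the 41 are a description of that set. The part of the filter in the motif shares of the 41 was not tested. Other motifs were also more frequent in the 1007 higher peaks: the AP-1 motif TGANTCA was in 11.2% (9.34% to 13.3%) against 6.35% of all, and the GATA motif AGATAA in 15.6% (13.4% to 18.0%) against 10.8%. Away from promoters AP-1 was in 11.3% (9.33% to 13.5%) against 8.76%, and GATA in 16.2% (13.9% to 18.7%) against 16.4%. The GLI motif GACCACCCA was in 0.497% of the higher peaks and 0.610% of all, and in 0 of the 41, which allows a share of up to 8.60% (exact interval). The nuclear receptor half-site AGGTCA was in 18.2% of the higher peaks, 17.2% of all and 29.5% of the lower ones. Away from promoters it was less frequent in the higher peaks than in all, 18.0% (15.6% to 20.6%) against 23.2%, and GLI shares were 0.532% (0.173% to 1.24%) and 0.818%. Higher peaks were also less GC-rich than all peaks (median 49.0% against 57.3%) and more often over 1 kb from a coding start (93.4% against 56.3%), and the part of GC content in these shares was not tested.

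**Figure D5:**
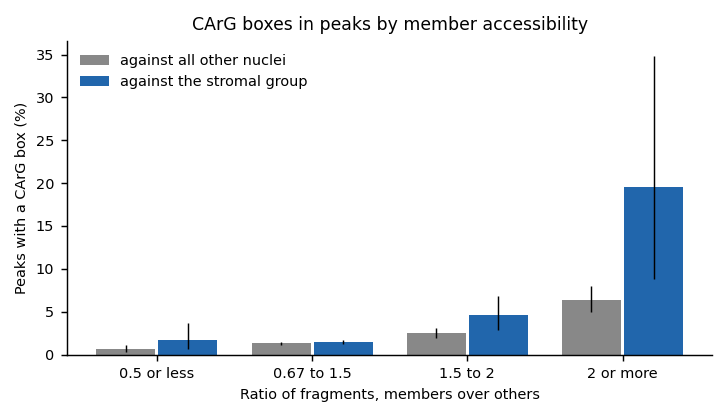
Share of peaks with a CArG box in their central 300 bases, in percent, by the ratio of fragments in members to those in others, with exact 95% intervals. Grey bars compare with all other nuclei and blue bars with the stromal group; the share is largest in peaks at least 2-fold higher, 6.36% and 19.5%. Most of the peaks at least 2-fold higher than in the stromal group, behind the 19.5%, passed the fragment filter only through raised member fragments.

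The 8 boxes in the 41 peaks at least 2-fold higher than in the stromal group are shown because the count above rests on them, each in 30 bases of the plus strand of GRCm38 with the box in capitals.
Cdh3 intron, chr8:106522100-106522129: tcaggggttgCCTTATTAGGaaagacagcc
Cyfip2 intron, chr11:46214063-46214092: ctaaacattcCCTTATATGGacacacatgt
Tagln first exon, chr9:45936028-45936057: cacacaggctCCATATTTGGggaaagacac
Arhgap24 exon, chr5:102845416-102845445: tgagggggtaCCATAAAAGGagcaggggag
Cnn2 promoter, chr10:79988534-79988563: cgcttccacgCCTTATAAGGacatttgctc
Irak2 intron, chr6:113690560-113690589: gaatcagtgaCCAAATAAGGgaatagcttg
Csrp1 intron, chr1:135734335-135734364: gagcagtcttCCTTTTAAGGcaatccagct
Cmss1 intron, chr16:57484315-57484344: ggacttttcaCCTTATATGGctacttttca
The boxes at *Tagln*, *Cnn2*, *Irak2* and *Arhgap24* lay 16, 36, 171 and 423 bp from the nearest coding start. Those in *Cdh3*, *Csrp1*, *Cyfip2* and *Cmss1* lay 11223, 5202, 21454 and 64913 bp from the nearest one. These 8 peaks were 2.0-fold to 2.45-fold higher than in the stromal group, with 30 to 51 member fragments each. RNA of the gene nearest to a box was higher than in the stromal group for *Cdh3* (5.32-fold, 4.69 to 6.04), *Cnn2* (4.29-fold, 3.75 to 4.92), *Csrp1* (3.39-fold, 2.93 to 3.93), *Irak2* (2.02-fold, 1.45 to 2.79) and *Filip1l*, the nearest start to the *Cmss1* intron box (1.60-fold, 1.44 to 1.77). *Arhgap24*, a GTPase-activating protein of the actin cytoskeleton, was at 0.942-fold (0.912 to 0.972) against the stromal group. *Fndc9*, the nearest start to the *Cyfip2* intron box, had 3 member UMIs (1.41-fold, 0.258 to 5.13), and *Tagln* is a rule gene.

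Proximal promoters of contractile genes held such boxes more often than promoters at large. Of 31 contractile genes outside the rule found in the RefSeq promoter table (GRCm38.p6, 250 bases before to 50 after each start), 7 (22.6%) held a CArG box, against 488 of all 27025 genes (1.81%). Of the rule genes only *Acta2* and *Cnn1* were in that table, and 0 of these 2 held a full box. *Acta2* held 2 boxes that depart from it by 1 G or C among the middle letters. Boxes with at most 1 such letter, full boxes included, stood in 8.59% of the 32851 upstream stretches, and 2 or more of them in 0.67%. The 2 near-boxes of *Acta2* lie 84 and 34 bases before the RefSeq start, in an annotated 5′ untranslated exon and inside the *Acta2* promoter peak that was 2.99-fold higher (2.05 to 4.26), and are shown on the minus strand with the near-box in capitals.
Acta2 near-box 1, chr19:34255438-34255467: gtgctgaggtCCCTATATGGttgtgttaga
Acta2 near-box 2, chr19:34255388-34255417: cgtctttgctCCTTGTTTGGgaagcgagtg
For *Cnn2*, whose promoter and RNA were both higher in the members, 234 bases of the upstream stretch are given on the plus strand. They end short of the RefSeq start, and the box in capitals lies 56 bases before that start. The 36 bp given above for this box refers to another start.
Cnn2 upstream, chr10:79988350-79988583: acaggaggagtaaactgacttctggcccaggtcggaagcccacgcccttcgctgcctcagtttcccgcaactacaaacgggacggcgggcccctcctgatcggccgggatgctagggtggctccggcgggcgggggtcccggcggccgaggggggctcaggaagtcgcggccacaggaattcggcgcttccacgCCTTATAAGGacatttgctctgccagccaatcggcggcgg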

How the data were processed

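Nuclei of whole E14.5 testes were profiled by 10x multiome (1 RNA and 1 ATAC library). Reads were mapped to mm10 and counted by the authors with the default settings of Cell Ranger ARC 2.0.1, and the deposited matrix holds raw counts of UMIs per gene and of cuts by the transposase in each peak, the peaks having been called on the pooled nuclei. The library held 122049390 UMIs and 58448458 fragments, at 1.09 read pairs per fragment. Members and gene lists were chosen with earlier results of these data known.

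UMIs were summed per group and divided by the group total. Members had 3969029 UMIs and 1047022 fragments at peaks, others 69470457 and 13085601. Each fragment was counted once per peak when an end lay in it. Levels have exact Poisson intervals, ratios conditional binomial ones and shares Clopper-Pearson ones, all at 95%. List medians used a pseudocount of 1 CPM and genes of at least 20 UMIs, and counts of genes past 2-fold used at least 50. Clusters were made from chromatin (TF-IDF, 30 components without the 1 that followed depth, 20 neighbours, leidenalg 0.10.2, resolution 0.5) and named "-like" by fixed markers, those of the contractile-like cluster being the 5 rule genes. No doublets were removed in the main values. A score after the scheme of Scrublet, built here, served an alternative that removed 405 barcodes, 17 of them members. No ambient RNA was removed. Python 3.11.15, scipy 1.17.1 and scikit-learn 1.9.0 were used. Only the step that gives ratios and their intervals was tested on simulated counts. Beyond the lists, the 10 genes with the largest and smallest ratios in each comparison were eligible to be named, at 100 UMIs and 50 CPM, and the 5 peaks likewise. Boxes and genes nearest to them were chosen after seeing the peaks. Genes that overlap can share reads and are uncertain. Some single genes of the lists are left out of the text. Alternatives are in the closing section.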

Additional observations from a re-analysis of the deposited data

How the results depend on the processing

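Each result was recomputed under the alternatives that bear on it, and the list median of the contractile genes outside the rule and the summed promoter ratio of the rule genes kept their direction under those run for them, though single genes did not all do so. This median (1.21) was 0.89 when nuclei were ranked after thinning to 2000 UMIs, 1.49 in the top 250 and 0.94 against the stromal group. The promoter ratio (2.24) was 1.73 after thinning, 1.88 in the top 1000 and 1.82 against the stromal group. The share of members in the contractile-like chromatin cluster, or where none took that name in the cluster with the highest ratio of members to others (34.4%) was 28.6% after thinning, 47.2% in the top 250, 26.4% in the top 1000 and 38.8% at a resolution of 1.0, where haemoglobin genes among its leading genes left the cluster unnamed. At a resolution of 0.3 no cluster took the contractile name, 79.0% of members lay in the progenitor-like cluster, and the cluster with the highest ratio held 7.80%. The cell cycle ratio (0.946) was 0.908 in the top 250, 0.920 in the top 1000, 0.864 ranked without *Acta2*, 0.966 ranked without *Myh11*, 0.927 with no limit on mural genes, 0.905 against the stromal group and 0.865 for members outside the contractile-like cluster, the last added after seeing the data. The Hedgehog median (0.53) was 0.023 against the stromal group. The CArG share (6.36%) was 4.33% with at least 50 fragments per peak and 4.35% for members outside the contractile-like cluster, both added after seeing the data. Thinning left 283 of the 500 members in place (56.6%). Of 780 ratios over all other nuclei (60 genes in 13 settings), 10 changed side: *Csmd3* at 1.06, *2610316D01Rik* at 1.13 and *Hs3st3b1* at 1.10 after thinning, *Hs3st3b1* at 1.12, *Bmp5* at 1.17 and *Pdlim5* at 0.898 in the top 1000, *2610316D01Rik* at 1.02 without *Acta2*, *Ptch1* at 0.924 in the top 250 and 0.972 without *Myh11*, and *Kcnj3* at 1.02 outside the contractile-like cluster. The causes were not tested. RNA and chromatin were read in the same nuclei, but with 1 library per assay no comparison across replicate libraries was possible. Depth limits the promoters of *Cnn1* and *Lmod1* to 22 and 25 member fragments and *Cnn1* RNA to 23 member UMIs.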
